A study of Mus musculus with 24 samples.

Results

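Kpna2 and the importin genes measured with it were followed through 24 RNA-seq libraries of mouse prostate. The 7 genes were taken from a list: the nuclear import adaptors Kpna1, Kpna2, Kpna3, Kpna4 and Kpna6, the import carrier Kpnb1, and the exporter Cse1l. They are 7 of 35519 genes to which the transcripts could be summed, and all 7 passed the low-count filter in organoids (15427 genes tested) and in tissue. Kpna2 was chosen by its CPM (reads scaled to library size) in these same libraries, which differed between genotype labels, and the other 6 as its relatives and partners. Its genotype differences are therefore given as a description, with a standard error and without a test.

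The organoids were Matrigel cultures of cells dissociated from the anterior prostate lobes of mice aged 3 months. All organoid groups shared a medium with N-acetylcysteine, B27, EGF, Noggin, R-Spondin, A83-01 (a TGF-beta receptor inhibitor) and Y27632. The 18 organoid libraries form 6 groups of 3: wild type (WT), Brca1+/- (HET) and Brca1-/- (KO), each grown in the presence of the androgen dihydrotestosterone (DHT) or in its absence. The 6 tissue libraries were anterior lobes sequenced directly, 2 per genotype label, and their age is not given in the labels. The labels do not name the strain, the Brca1 allele, a Cre driver or the number of culture lines per genotype. Replicates are called biological, with no word on separate animals or cultures, and a p-value here measures the spread between libraries alone, which may be technical.

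Importin alpha proteins are adaptors that bind the nuclear localisation signal of a cargo protein. Importin beta, made by Kpnb1, binds the adaptor and carries the complex through the nuclear pore, and the GTP-bound form of the small GTPase Ran releases the cargo inside the nucleus. The protein made by Cse1l then returns importin alpha to the cytoplasm. Kpna2 is the adaptor best known from proliferating cells, and the Brca1 protein carries localisation signals of the class that importin alpha binds. Importins also hold spindle assembly factors inactive until Ran frees them in mitosis.

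Kpna2 lies on chromosome 11 at chr11:106988629-106999541 on the minus strand (GRCm38), 5.44 Mb from Brca1 at chr11:101488764-101551955. Kpnb1 lies on the same chromosome at chr11:97159714-97187881, 4.30 Mb from Brca1. The other members are on chromosomes 16 (Kpna1), 14 (Kpna3), 3 (Kpna4), 4 (Kpna6) and 2 (Cse1l). The full-length transcript Kpna2-201 has 11 exons and 2054 bases. Because reads of the KO libraries were assigned to other Kpna2 transcripts in large part, the joins that tell 3 of them apart are shown. Each line gives in lower case the last 30 bases of exon 3, chr11:106996509-106996538 on the minus strand, from GENCODE on GRCm38, and in capitals what follows.
Kpna2-201: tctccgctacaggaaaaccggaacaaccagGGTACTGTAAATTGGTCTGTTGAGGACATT
Kpna2-202: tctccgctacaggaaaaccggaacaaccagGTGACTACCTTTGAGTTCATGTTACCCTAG
Kpna2-206: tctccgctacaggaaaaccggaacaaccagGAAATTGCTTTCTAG
In Kpna2-201 the capitals are the start of exon 4. In Kpna2-202, which has 3 exons and 541 bases, they are the intron read through past the splice site, and they close with the annotated stop codon. In Kpna2-206 exon 4 is absent, the capitals are the start of what is exon 5 of Kpna2-201, and they close with its annotated stop codon, and the annotation classes the transcript as a target of nonsense-mediated decay.

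The region upstream of Kpna2 is shown because promoters of genes expressed in G2 and mitosis, with which Kpna2 is compared further on, often hold CCAAT and TTTGAA. The 234 bases before the first exon that GENCODE annotates, chr11:106999542-106999775 on the minus strand (RefSeq, GRCm38.p6), read as follows.
Kpna2 upstream: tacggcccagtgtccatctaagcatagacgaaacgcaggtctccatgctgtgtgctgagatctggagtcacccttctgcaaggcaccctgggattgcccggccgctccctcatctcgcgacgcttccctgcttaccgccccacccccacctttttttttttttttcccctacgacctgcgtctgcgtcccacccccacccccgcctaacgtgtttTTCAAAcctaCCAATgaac
The capitals mark TTTGAA, which lies on the opposite strand and so reads TTCAAA here, and CCAAT on the same strand. They begin 19 and 9 bases before the end of the stretch shown and do not overlap. The RefSeq start lies 16 bases past that end, so they begin 35 and 25 bases before it. In the 250 bases upstream of 32851 mouse promoters, searched on both strands, CCAAT was found in 33.8%, TTTGAA in 15.99% and both in 5.55%. Of 20 G2 and mitosis genes listed for comparison, 17 had a promoter in the table, and 7 of these held both. Among the importin members 3 had a promoter there, and those of Kpna4 and Kpnb1 held 2 and 3 matches to CCAAT and none to TTTGAA. A match is a run of letters and not a measured site.

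The libraries held 11965815 to 58445041 estimated reads, and WT with DHT replicate 1 was the smallest. Brca1 RNA did not pass the test between WT and KO in either medium. With DHT it was 13.6, 13.2 and 14.3 counts-per-million (CPM, scaled between libraries by the trimmed mean of M-values) in WT and 11.8, 9.64 and 11.2 CPM in KO, which do not overlap, a log2 change of -0.34 (SE 0.13, edgeR adjusted p = 0.22). Without DHT it was 13.2, 11.2 and 14.2 CPM in WT and 13.1, 10.8 and 10.3 CPM in KO, which overlap, a change of -0.18 (SE 0.13, edgeR adjusted p = 0.60). Brca1 was lower in KO than in HET in both media (edgeR adjusted p = 0.011 with DHT and 0.0056 without). HET was itself above WT without DHT, by 0.53 (SE 0.13, edgeR adjusted p = 0.015). With DHT, HET against WT was 0.30 (SE 0.13, edgeR adjusted p = 0.22) and was not called. WT, HET and KO below are the labels of the libraries. Organoids expressed luminal Krt8 and basal Krt5 but held at most 1.89 transcripts-per-million (TPM) of the prostate secretory gene Pbsn, and 4 of 4 basal markers reached 1 TPM in every library. Of 7 seminal vesicle markers 0 reached 1 TPM in any organoid library. Tissue replicates WT 2 and HET 1 stood apart: Svs2, a seminal vesicle secretory gene, was at 107439 and 37914 TPM there and at 0.45 to 3.34 TPM in the other 4 tissue libraries. In HET 1 the prostate genes Pbsn and Tgm4 were at 65.3 and 1.00 TPM.

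Kpna2 RNA was almost absent from the KO organoids in both media and highest in the HET organoids. With DHT, Kpna2 stood at 48.1, 51.5 and 48.3 CPM in the WT libraries, at 64.1, 55.8 and 62.1 CPM in HET, and at 3.00, 2.38 and 1.70 CPM in KO. No 2 of these groups overlapped. In bulk RNA, fewer cells with a transcript and less of it per cell cannot be told apart.

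Without DHT the order was the same. Kpna2 was at 38.4, 35.6 and 37.1 CPM in WT, at 53.1, 72.2 and 64.8 CPM in HET, and at 2.56, 2.42 and 2.59 CPM in KO. Again no KO library came near a WT library, and the lowest HET library lay above the highest WT library. KO organoid libraries held 62 to 138 estimated Kpna2 reads, against 427 to 2272 in WT and 1463 to 4067 in HET.

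**Figure D1:**
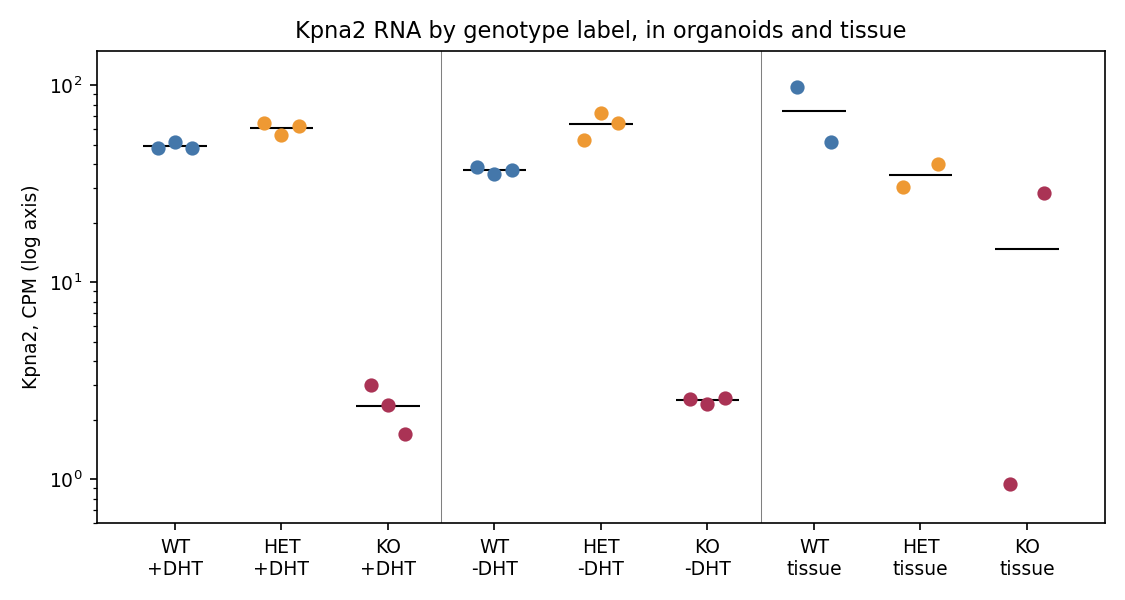
Kpna2 level in each of the 24 libraries, in CPM on a log axis, by genotype label and material. Points are libraries and bars are group means; KO organoids lie between 1.70 and 3.00 CPM, WT and HET organoids between 35.6 and 72.2 CPM, and the 2 KO tissue libraries at 0.950 and 28.5 CPM.

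The log2 change of KO against WT was -4.39 (SE 0.17) with DHT and -3.87 (SE 0.17) without, which leaves 4.78% and 6.82% of the WT level. Against HET it was -4.69 (SE 0.17) and -4.65 (SE 0.17). HET against WT gave 0.30 (SE 0.15) with DHT and 0.78 (SE 0.15) without. These comparisons share the same control libraries within a medium. The size depends on the unit: per length, in TPM, KO against WT was -2.95 in both media, and the edgeR fit with transcript length offsets gave -3.04 and -2.92. In KO a larger share of the reads was assigned to short transcripts, which count for more per base.

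The difference lay in the full-length transcript. Kpna2-201 averaged 47.8 CPM (SD 1.58, n = 3) in WT and 0.846 CPM (SD 0.589, n = 3) in KO with DHT, 56.5-fold lower. Without DHT it averaged 35.6 CPM (SD 2.04, n = 3) in WT and 1.64 CPM (SD 0.249, n = 3) in KO, 21.7-fold lower. The groups did not overlap in either medium.

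The read-through form did not show this pattern. Kpna2-202 was at 0.810, 0.265 and 0.0891 CPM in WT with DHT and at 0.518, 0.707 and 0.606 CPM in KO with DHT. In counts this was 7.20, 11.4 and 4.19 estimated reads in WT and 23.8, 29.7 and 29.97 in KO. Without DHT the WT libraries were at 0.237, 0.145 and 0.488 CPM and the KO libraries at 0.907, 0.367 and 0.437 CPM. WT and KO overlapped in both media. The overlap rests on the highest WT library in each medium, at 0.810 CPM with DHT and 0.488 CPM without. The other WT libraries lay below every KO library of the same medium. With DHT, KO averaged 0.610 CPM (SD 0.0945, n = 3) and HET 0.313 CPM (SD 0.159, n = 3), which do not overlap. Without DHT, KO and HET overlapped. The transcript that ends in the intron after exon 3 thus overlapped between WT and KO through the highest WT library alone. The full-length transcript separated these labels.

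As a result the make-up of Kpna2 reads differed between labels. Kpna2-201 took 94.1% to 98.3% of the gene's reads in WT organoids and 93.9% to 98.8% in HET. In KO organoids it took 20.3% to 76.5%, and Kpna2-202 took 15.2% to 35.6%. Kpna2-203, which begins with another first exon, reached 43.2% in a KO library with DHT. It averaged 0.481 CPM (SD 0.520, n = 3) in KO with DHT and 0.104 CPM (SD 0.180, n = 3) in WT, which overlap. Salmon splits reads between overlapping transcripts by a model, so shares that rest on 62 to 138 reads are estimates. The processed copy Kpna2-ps on chromosome 17 held 1 to 17 reads in organoids and was not higher in KO than in WT.

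**Figure D2:**
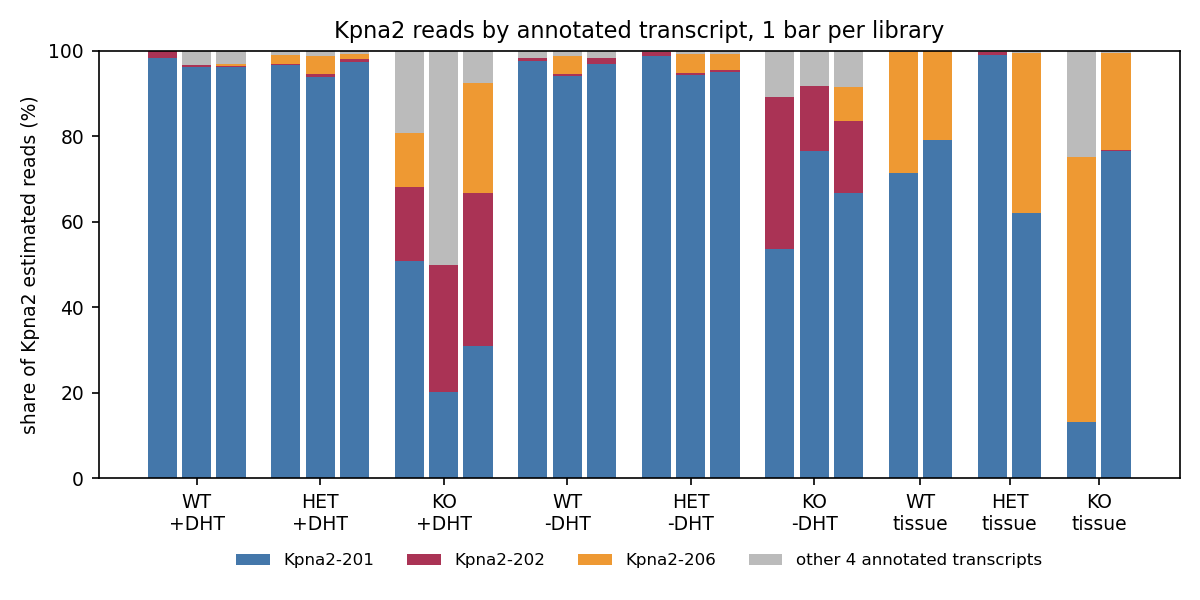
Share of Kpna2 estimated reads assigned to each annotated transcript, in percent, with 1 stacked bar per library. WT and HET organoids are nearly all Kpna2-201 (93.9% or more), KO organoids hold 20.3% to 76.5% of it, and Kpna2-206 takes 20.9% to 62.0% in 5 of the 6 tissue libraries.

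Tissue did not repeat the organoid picture as a whole. Kpna2 was at 97.7 and 51.4 CPM in WT tissue, at 30.5 and 39.9 CPM in HET, and at 0.950 and 28.5 CPM in KO. KO replicate 1 held 41 Kpna2 reads, as low as the KO organoids, whereas KO replicate 2 held 1365 and lay close to the HET libraries. The log2 change of KO against WT was -2.34 (SE 1.32), that of KO against HET -1.26 (SE 1.27), and that of HET against WT -1.08 (SE 1.27). Without KO replicate 2, KO against WT was -6.29 and KO against HET -5.23, and without KO replicate 1 they were -1.39 and -0.31. Brca1 was at 3.78 CPM in KO replicate 1, within the WT values of 4.16 and 3.10 CPM, and at 2.19 CPM in KO replicate 2, below them. Without WT replicate 1, HET against WT was -0.54.

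The decay-target form was assigned mainly in tissue. Kpna2-206 took 28.3% and 20.9% of Kpna2 reads in WT tissue, 0% and 37.5% in HET, and 62.0% and 22.7% in KO. In KO replicate 1 this rests on 25.5 estimated reads, and the 0% is that of HET replicate 1, a library with seminal vesicle RNA. In organoids the share was 0% to 4.31% in WT and HET and 0% to 25.8% in KO, where it rests on at most 21.7 reads. Kpna2-202, the read-through form, had 0 to 7.18 reads in each tissue library.

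DHT withdrawal was tested for all 7 members, since it was not what chose them. No member passed the test: edgeR called 0 of 7 in WT, where 1.3% of all genes were called (0.694% lower), 0 of 7 in HET (0.713% of all genes) and 0 of 7 in KO (0.551%). At an unadjusted p below 0.05 edgeR had 1 lower in WT, which was Kpna2, and 0 in HET and KO, and DESeq2 called 0 in each. Of all 15427 tested genes, 1249 passed that limit in WT, 1287 in HET and 1083 in KO. Kpna2 gave a log2 change of -0.41 (SE 0.15, edgeR adjusted p = 0.31) in WT, 0.06 (SE 0.14) in HET and 0.10 (SE 0.17) in KO. All 3 WT libraries without DHT lay below all 3 with DHT. The difference between these responses was 0.48 (SE 0.21) for HET against WT and 0.51 (SE 0.22) for KO against WT, each with an edgeR adjusted p of 1.00, and 0% of all genes were called in either. No member passed these tests of the difference in DESeq2 either.

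No rise of the other adaptors was detected where Kpna2 was nearly missing. Of the 6 other members edgeR called 0 in KO against WT with DHT, where 4.12% of all genes were called, and 0 without DHT (4.73%, of which 1.93% lower). At an unadjusted p below 0.05 there was 1 higher with DHT, Kpnb1, and 0 without, and DESeq2 called 0 in both. Of all 15427 tested genes, 2031 passed that limit with DHT and 2280 without. In KO against HET edgeR called 0 of 6 with DHT (3.53% of all genes, 1.78% higher) and 0 of 6 without (2.88%), and DESeq2 called 0. There 0 of 6 passed an unadjusted p below 0.05, beside 2165 of 15427 genes with DHT and 1842 without. The median log2 change of the 6 was 0.13 with DHT and 0.05 without for KO against WT, beside -0.01 and 0.00 over all genes.

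Kpna1 and Kpna6, adaptors of the same subfamily, gave no call. Kpna1 was at 126, 91.7 and 96.9 CPM in WT with DHT and at 106, 106 and 98.5 CPM in KO, a log2 change of -0.01 (SE 0.14). Without DHT it was -0.24 (SE 0.14). In CPM, Kpna6 varied least of the members, from 125 to 141 CPM over the 18 organoid libraries, and KO against WT gave 0.04 (SE 0.07) and -0.09 (SE 0.07). In TPM it did not vary least, as Kpna6 ran from 29.13 to 49.99 TPM and Kpna1 from 26.24 to 41.64 TPM.

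Kpna3 and Kpna4, adaptors of another subfamily, varied more between replicates than between labels. Kpna3 was at 160, 96.0 and 105 CPM in WT with DHT and at 158, 147 and 129 CPM in KO, a log2 change of 0.27 (SE 0.29). Kpna4 was at 256, 177 and 194 CPM in WT and at 228, 224 and 202 CPM in KO, a change of 0.06 (SE 0.25). Without DHT the changes were 0.33 (SE 0.29) for Kpna3 and 0.01 (SE 0.24) for Kpna4. The groups overlapped for both genes.

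Their spread went with the mitochondrial share of reads, and also with the level of the listed G2 and mitosis genes. Without DHT, Kpna3 was at 246, 164 and 112 CPM in the 3 HET libraries, whose mitochondrial reads were 9.40%, 4.53% and 2.41%. In the 3 KO libraries it was at 222, 152 and 104 CPM, with 9.97%, 4.16% and 2.61%. In both groups the library with the most mitochondrial reads had the most Kpna3. Taken as deviations from the group means over the 18 libraries, Kpna3 had a Pearson r of 0.88 with that share, Kpna4 0.90, Cse1l 0.64, Kpna1 0.60 and Kpna6 -0.48. Kpna3 and Kpna4 had an r of 0.99 with each other, and Kpna2 had an r of -0.07 with the mitochondrial share. For Kpna6 the negative r is that of CPM and depends on the unit. In TPM Kpna6 was highest in the 2 libraries with over 9% mitochondrial reads. These are replicate 1 without DHT of HET, at 49.99 TPM, and of KO, at 46.49 TPM. Against the log2 summed CPM of the G2 and mitosis list, r was 0.81 for Kpna3 and 0.78 for Kpna4. It was 0.63 for Cse1l, 0.53 for Kpna1, 0.32 for Kpnb1 and -0.38 for Kpna6. What the level of that list contributes was not tested. These values are descriptions: the points share the CPM scaling, and 2 libraries with over 9% mitochondrial reads also have the next fewest reads after WT with DHT replicate 1. What the mitochondrial share contributes was not tested beyond a fit that holds it as a covariate, in which edgeR called 0 of 6 members in KO against WT in either medium.

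**Figure D3:**
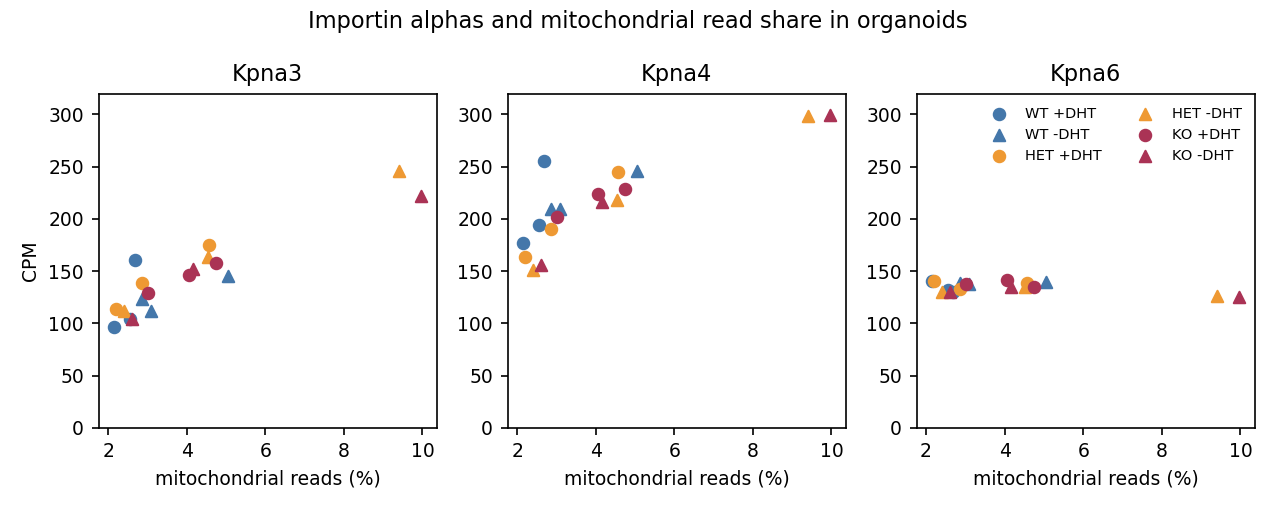
Kpna3, Kpna4 and Kpna6 in CPM against the share of mitochondrial reads in percent, for the 18 organoid libraries, with colour for genotype label and shape for medium. Kpna3 and Kpna4 are highest in the 2 libraries above 9% and Kpna6 stays between 125 and 141 CPM. In TPM, which is not drawn, Kpna6 is also highest in these 2 libraries.

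The carrier Kpnb1 was the most abundant member, at 151 TPM on average in organoids. With DHT it was at 415, 466 and 449 CPM in WT, at 522, 586 and 598 CPM in HET, and at 500, 552 and 524 CPM in KO. HET and KO both lay above WT without overlap. It rose in HET against WT by 0.36 on the log2 scale (SE 0.09, edgeR adjusted p = 0.023), and it was the 1 of 6 other members called there, beside 7.45% of all genes (4.03% higher and 3.43% lower). The adjusted p ranged from 0.0013 to 0.43 over 15 alternative settings, and the call was lost in 8 of them. Among these were the fits without WT with DHT replicate 1 (edgeR adjusted p = 0.10) or 3 (0.083), and without HET with DHT replicate 2 (0.10) or 3 (0.13). KO against WT was 0.24 (SE 0.09, edgeR adjusted p = 0.20). Without DHT, HET against WT was 0.19 (SE 0.09, edgeR adjusted p = 0.29). There edgeR called 0 of 6 beside 7.82% of all genes (4.56% higher and 3.26% lower), and DESeq2 called 0. At an unadjusted p below 0.05 there were 0 of 6, beside 2897 of 15427 genes.

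The exporter Cse1l was at 66.7, 52.6 and 55.8 CPM in WT with DHT and at 71.3, 64.2 and 64.4 CPM in KO. The groups overlapped, and the log2 change was 0.20 (SE 0.13) with DHT and 0.19 (SE 0.13) without. HET against WT was 0.14 (SE 0.13) and 0.25 (SE 0.13), none of them called.

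**Figure D4:**
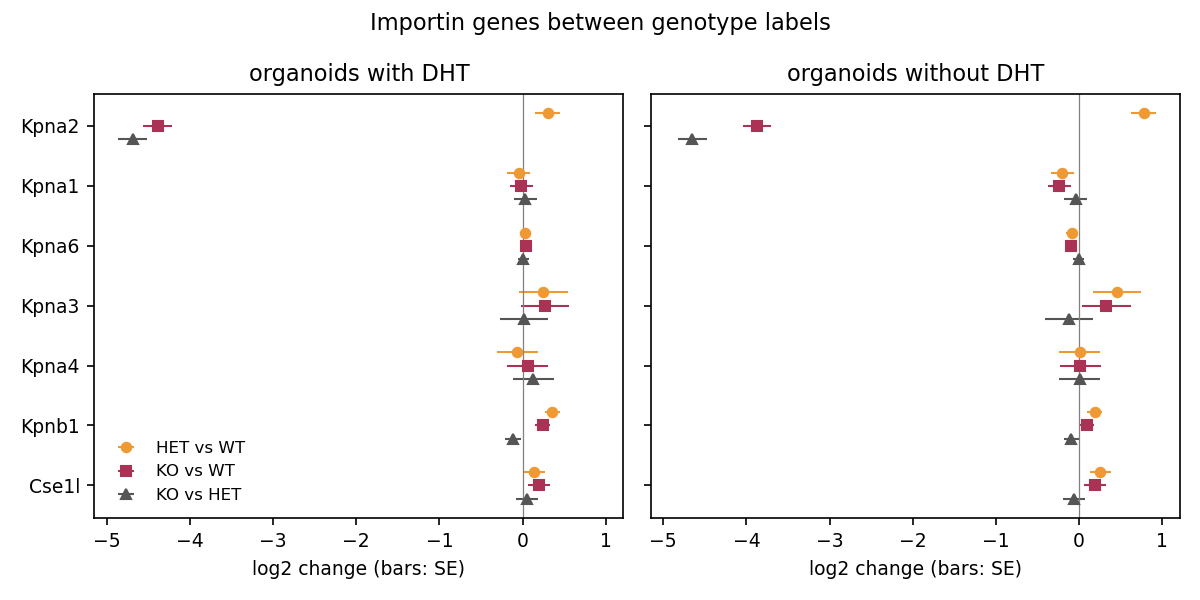
Log2 change of each member between genotype labels in organoids, with DHT on the left and without on the right; bars are the standard error of the edgeR fit. Kpna2 lies between -4.69 and -3.87 in the comparisons with KO, and the other 6 members lie between -0.24 and 0.45 throughout.

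Levels between genes were compared per length. In organoids the order by mean TPM was Kpnb1 (151), Kpna4 (60.2), Kpna3 (49.8), Kpna6 (36.4), Kpna1 (34.1), Cse1l (31.1) and Kpna2 (27.8). The adaptors Kpna6 and Kpna1 and the exporter Cse1l were neighbours whose ranges over libraries overlapped. In WT organoids with DHT Kpna2 averaged 38.0 TPM (SD 4.39, n = 3), between Kpna3 at 40.4 (SD 9.40) and Kpna1 at 35.3 (SD 2.55), and these did not differ beyond their spread. In KO with DHT it averaged 4.93 TPM (SD 1.39), the lowest of the members. Kpna7, the adaptor most closely related to Kpna2, had at most 1 read in any library.

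In the summed importin alpha RNA the Kpna2 part was nearly missing in KO, while the sum of the other adaptors overlapped between labels. Kpna2 made up 18.7% of importin alpha TPM in WT with DHT, 20.7% in HET and 2.58% in KO, and without DHT 13.9%, 20.2% and 2.09%. The sum over the other adaptors was 184, 155 and 160 TPM in WT with DHT and 197, 180 and 180 TPM in KO. The lowest KO library lay below the highest WT library, WT replicate 1, which has the fewest reads. The overlap rests on that library, as WT replicates 2 and 3 lay below every KO library. Without DHT the other adaptors summed to 182, 179 and 199 TPM in WT and to 226, 175 and 152 TPM in KO, again overlapping. Their means with DHT were 166 (SD 15.8) and 186 (SD 9.89), against a mean Kpna2 level of 38.0 TPM in WT and 4.93 TPM in KO. Without DHT the means were 187 (SD 10.6) and 184 (SD 37.8). The log2 difference of the total with Kpna2, in TPM, was -0.10 with DHT and -0.20 without, and in CPM it was -0.03 and -0.06. With DHT it was -0.05 without WT replicate 1. Without DHT it was -0.37 without KO replicate 1 and -0.08 without KO replicate 3.

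**Figure D5:**
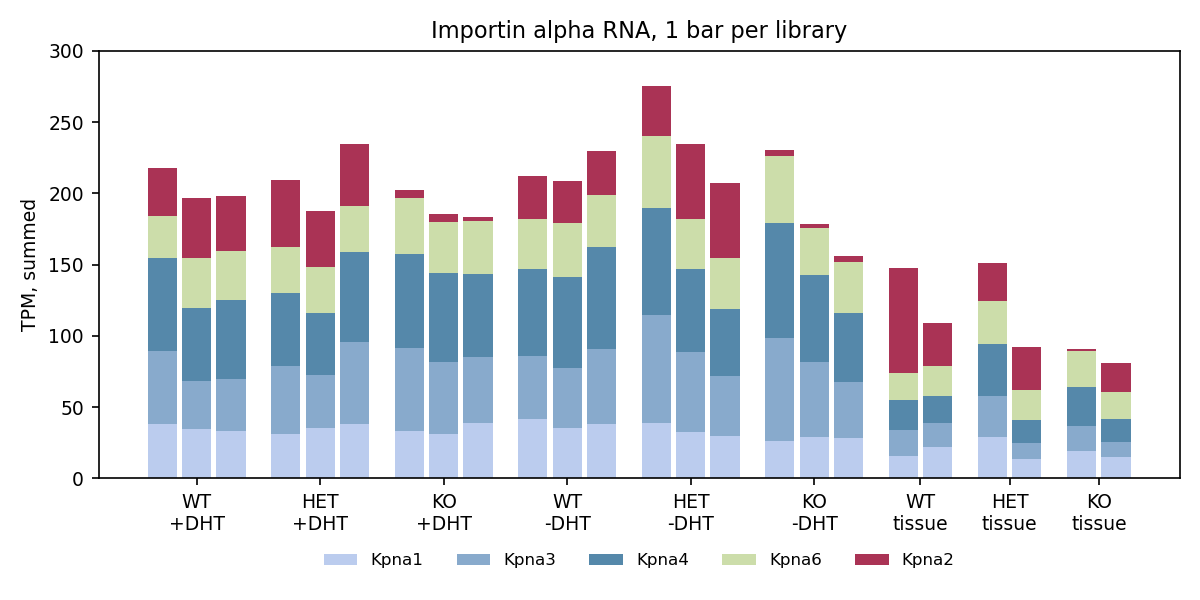
Importin alpha RNA in TPM, stacked by gene, with 1 bar per library. Kpna2 (dark red) is 13.9% to 20.7% of the sum on average in WT and HET organoids and 2.58% or less in KO. The sum of the other 4 adaptors overlaps between labels, for WT and KO with DHT through WT replicate 1 alone.

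In tissue the members other than Kpna2 gave no call. edgeR called 0 of 6 in each of the 3 genotype comparisons, beside 0% of all genes in each, with 0 at an unadjusted p below 0.05 and 0 in DESeq2. Of 16753 genes, 455 passed the unadjusted limit in HET against WT, 320 in KO against WT and 97 in KO against HET. With 2 libraries per label and a coefficient of variation of 0.50 between tissue replicates, against 0.21 in organoids, smaller differences were not detectable. Kpnb1 was at 228 and 249 CPM in WT, 236 and 202 CPM in HET and 242 and 198 CPM in KO, which overlap. In KO replicate 1, where Kpna2 was at 1.29 TPM, the other adaptors summed to 89.6 TPM, against 60.5 TPM in KO replicate 2 and 74.3 and 78.9 TPM in WT. HET replicate 1 was highest at 124 TPM, and it is a library with seminal vesicle RNA. Leaving out WT replicate 2 and HET replicate 1 gave 0 calls as well.

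The rest of the transport machinery was looked at through lists. Among 11 other import receptors, 6 exportins and 7 genes of the Ran cycle, edgeR called 0 in every genotype comparison in both media. Over all genes 2.88% to 7.82% were called in these comparisons, so in lists this short a count of 0 lies near the general share. At an unadjusted p below 0.05 in KO against WT there was 1 import receptor higher and 1 Ran cycle gene higher, both without DHT, and 0 exportins. In HET against WT there were 1 import receptor higher and 1 lower and 1 Ran cycle gene higher, all without DHT, and in KO against HET 0. Of all 15427 tested genes, 1842 to 2897 passed that limit in these comparisons. The median log2 changes for KO against WT with DHT were 0.00, 0.01 and -0.02, beside -0.01 over all genes. Ipo5, an import receptor for ribosomal proteins among others, changed by -0.11 (SE 0.07, edgeR adjusted p = 0.66) with DHT, and Ran itself by -0.16 (SE 0.10, edgeR adjusted p = 0.61). Xpo1, the main exporter of proteins with a leucine-rich export signal, gave 0.36 (SE 0.32, edgeR adjusted p = 0.79). Of 27 nuclear pore genes, Ndc1 and Nup107 rose in HET against WT without DHT by 0.50 and 0.41 (edgeR adjusted p = 0.0031 and 0.0053), 2 of 27 beside 4.56% of all genes called higher. Nup107 fell in KO against HET without DHT by 0.36 (edgeR adjusted p = 0.028), 1 of 27 beside 1.56% called lower.

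Of 7 spindle factors that Ran and importins regulate, 5 rose in HET against WT with DHT (4.03% of all genes called higher) and 5 without (4.56%): Tpx2, Nusap1, Kif22, Tacc3 and Dlgap5. Tpx2, an activator of the kinase Aurora A and itself an importin cargo, rose by 0.73 (SE 0.15) and 1.01 (SE 0.15). In KO against HET 3 fell with DHT (1.75% of all genes called lower) and 3 without (1.56%): Kif22, Tacc3 and Dlgap5. In KO against WT 0 were called with DHT (4.12% of all genes), with 1 at an unadjusted p below 0.05, beside 2031 of 15427 genes. Without DHT 2 rose (2.81% of all genes called higher), Nusap1 by 0.77 (SE 0.21) and Dlgap5 by 0.52 (SE 0.13). There 4 were higher at an unadjusted p below 0.05, which 2280 of 15427 genes passed in either direction.

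Genes of G2 and mitosis gave the same order of labels. Of 20 listed genes 16 rose in HET against WT with DHT and 19 without, where 4.03% and 4.56% of all genes were called higher, with median changes of 0.68 and 0.90 beside 0.00 over all genes. Aurka, the gene of Aurora A, rose by 0.76 (SE 0.08) and 0.92 (SE 0.08), and Nek2, a centrosome kinase, by 0.81 (SE 0.09) and 1.00 (SE 0.09). In KO against HET 12 fell with DHT and 11 without (1.75% and 1.56% of all genes called lower), and the medians were -0.58 and -0.52. In KO against WT 0 were called with DHT, where 1 passed an unadjusted p below 0.05, and 2 rose without DHT, Nek2 and Kif20a, where 2.81% of all genes were called higher. Without DHT 15 of the 20 were higher at an unadjusted p below 0.05, which 2280 of 15427 genes passed in either direction. With DHT 2031 genes passed it. The medians of the list in KO against WT were 0.09 and 0.36, whereas Kpna2 was at -4.39 and -3.87. Of 16 S phase genes 6 rose in HET against WT with DHT and 10 without (4.03% and 4.56% of all genes called higher). In KO against HET 7 fell with DHT and 7 without (1.75% and 1.56% called lower). In KO against WT edgeR called 0 in both media (4.12% and 4.73% of all genes), with 0 at an unadjusted p below 0.05.

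Within WT and HET organoids Kpna2 went with these genes. Over the 12 libraries its log2 CPM had a Pearson r of 0.82 and a Spearman rank correlation of 0.75 with the log2 summed CPM of the G2 and mitosis list. This was not particular to Kpna2, as Kpnb1 had 0.81 and 0.80. Pearson r was 0.65 for Cse1l, 0.59 for Kpna3, 0.07 for Kpna4, -0.25 for Kpna1 and -0.39 for Kpna6. The 12 libraries come from 4 groups that differ in the list itself. As deviations from group means over the 18 organoid libraries r was 0.05 for Kpna2. That set includes the KO libraries, which held 62 to 138 Kpna2 reads. Among single genes the highest r over the 12, chosen after their values were seen, were Igsf5 (0.94), Plscr2 (0.94), Asf1b (0.94), Haspin (0.94) and Orc1 (0.93). Asf1b is a histone chaperone of S phase, Haspin a mitotic histone kinase and Orc1 a subunit of the origin recognition complex. No such role is given here for Igsf5 and Plscr2, which had the highest r. None of these genes is on the G2 and mitosis list or the S phase list. In tissue the library with the least Kpna2, KO replicate 1, had the highest summed level of the G2 and mitosis genes, at 293 CPM against 152 to 250 CPM in the other 5.

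Over all 18 organoid libraries the genes most like Kpna2 in log2 CPM, among those ranked, were others that are low in KO. Genes known only by a predicted-gene or clone name were not ranked. They were Ftl2-ps (r = 0.99), Ftl1-ps1 (0.99) and Ftl1-ps2 (0.98), copies of ferritin light chain genes on chromosomes 4, 13 and 10 between which reads may be split, then Tead2 (0.96), a Hippo pathway transcription factor, and Dhdh (0.96), a dehydrogenase, both on chromosome 7. Since KO libraries form a separate cluster, r within the 12 WT and HET libraries is also given: it was 0.31, 0.34, 0.30, 0.38 and 0.09. Ftl2-ps was at 92.2 to 204 CPM in WT and HET and at 0 to 0.0626 CPM in KO, and Tead2 at 12.3 to 21.3 and 5.16 to 7.80 CPM. With DHT alone Fcgr3, an Fc receptor gene, joined the 5 highest (0.98, n = 9), and without DHT Rpl29, a ribosomal protein gene, and Cog3, a Golgi tethering subunit (0.99 and 0.98, n = 9).

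Tissue broke this likeness. Ftl2-ps was at 107 and 0 CPM in WT tissue, at 0 and 143 CPM in HET, and at 197 and 0.0418 CPM in KO. KO replicate 1, with almost no Kpna2, had the highest Ftl2-ps of the 6 libraries, and KO replicate 2, with Kpna2 at 28.5 CPM, had almost none. Ftl1-ps1 had the same order, at 574 CPM in KO replicate 1 and 5.68 CPM in KO replicate 2.

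The genes beside Kpna2 on chromosome 11 did not share its change. The 3 nearest tested genes on each side are Ddx5, Cep95 and Smurf2, and 1810010H24Rik, Bptf and Nol11. Over the 4 organoid comparisons with KO, 0 of 24 values were called by edgeR, the log2 changes ran from -0.15 to 0.79 and the lowest adjusted p was 0.30. Smurf2, a ubiquitin ligase that lies on the side of Brca1, changed by 0.22 (SE 0.11) in KO against WT with DHT, and Bptf, a chromatin remodelling subunit on the other side, by 0.00 (SE 0.13).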

How the data were processed

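RNA-seq was analysed from 24 libraries. The deposited files list estimated counts and TPM for 116945 transcripts, made by the authors. Per the submitters' processing notes the tool was Salmon 0.13.1. Those notes name hg38, but the identifiers are those of mouse transcripts. The Salmon index, strandedness and trimming are not given in the sources used here.

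Estimated counts were summed per gene with GENCODE vM21 (GRCm38) and rounded to whole numbers, leaving out 922 transcripts without a gene (0.227% to 0.327% of reads). The deposited TPM were summed likewise. edgeR 4.0.16 in R 4.3.3 was used with TMM scaling, filterByExpr and the robust quasi-likelihood F-test, with Benjamini-Hochberg adjustment over all tested genes and a threshold of 0.05. The 18 organoid libraries (12 residual degrees of freedom) and the 6 tissue libraries (3) were fitted apart, with 1 mean per group. The test was checked on simulated counts. The members, lists and rules were chosen with earlier results of these data known.

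The text names all members, Brca1, up to 3 called genes with the lowest p of each list or its 2 most abundant, the 5 genes whose log2 CPM (prior count 2, mean of at least 5 CPM) had the highest r with Kpna2, and the 3 nearest tested genes on each side. Alternatives were DESeq2 1.42.0, its size factors, other filters, length offsets, a replicate block, other sets of libraries and the mitochondrial share. Among organoid groups, same-numbered libraries deviated together most in KO and HET without DHT (r of 0.61, 0.23 and 0.69). In KO and HET tissue r was 0.41. The main fits hold no pairing, and the replicate number entered only as a block in alternative fits.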

Additional observations from a re-analysis of the deposited data

How the results depend on the processing

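Of 461 recomputed values of the main results, 432 stayed within the replicate spread or on their side of the threshold and 29 moved. In 14 comparisons no importin was called among those tested (Kpna2 was not tested between genotypes), and 0 of their 220 alternatives gave a call. In HET against WT with DHT the count of 1, Kpnb1, became 0 with no low-count filter, with transcript length offsets, without the 3 libraries with the fewest reads and with only the groups compared, and leaving out single libraries gave 0 to 1. Kpna2 in KO against WT was -3.04 with length offsets and -2.95 in TPM with DHT, and -2.92 and -2.95 without. KO against HET was -3.26 and -3.14 with DHT, and -3.63 and -3.59 without, and HET against WT with DHT was 0.21 and 0.19. The cause of these shifts was not tested, and neither was the part of the short transcripts named above. In tissue, leaving out single libraries moved Kpna2 from -6.29 to -1.39 for KO against WT, from -5.23 to -0.31 for KO against HET and from -1.45 to -0.54 for HET against WT; the total importin alpha ran from -0.78 to -0.35 for KO against WT and from -0.82 to -0.10 for KO against HET. As a share of TPM, Kpna2-201 was 87.6% in WT, 91.1% in HET and 13.1% in KO with DHT, and 89.0%, 92.0% and 31.9% without. The replicate block changed no importin call. With it, Kpna2 in KO against HET without DHT was -4.65, and -4.68 in a fit of these groups alone. Kpna2 in KO against WT was -4.39 with DHT and -3.87 without. The labels give same-numbered libraries only a shared number. A group left with 1 tissue library was assumed to vary like the others. Shares in KO organoids rest on 62 to 138 reads, which limits them.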
